A study of Mus musculus with 4 samples.

Results

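The presynaptic vesicle release machinery is described here through 41 genes, chosen by symbol, in libraries from wild-type (WT) and Stra8 knockout (KO) mice. They encode SNARE proteins and the factors that recycle them, active zone scaffolds, calcium sensors, complexins, Rab3 and its effector, vesicle membrane proteins and vesicular glutamate transporters. Each of the 41 symbols matched a single row among 55414, and all 41 passed the filter on low counts, among 21592 genes tested. The data were messenger RNA sequencing of 4 libraries, 2 labelled wild-type and 2 labelled Stra8-KO, with brain given as the tissue. Stra8 is known as a retinoic acid responsive gene of germ cells. Per the series design, mice of both genotypes carried a pStra8-GFP reporter, in which the Stra8 promoter drives a green fluorescent protein, and GFP-positive cells were sorted from hippocampi. The strain, age and sex, and the number of animals behind a library, are not stated, so the p-values measure the spread between these libraries, which may be technical.

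Total counts ran from 71097417 to 82172740 per library, and no count of a member was below 360. Stra8 itself had 5, 1, 7 and 4 reads in WT libraries 1 and 2 and KO libraries 1 and 2, too few to check which genotype a library is. Markers of regions other than hippocampus were read in every library. The summed level of 7 cerebellar granule cell markers in CPM, counts scaled to the TMM-adjusted library size, ranged from 377 to 382 in WT and from 234 to 236 CPM in KO. The sum of 8 striatal markers ranged from 708 to 710 CPM in WT and from 857 to 859 CPM in KO. No marker gene was at 0 in all libraries.

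A synaptic vesicle fuses when a vesicle SNARE (synaptobrevin, the Vamp genes) zips together with the plasma membrane SNAREs syntaxin (Stx1a) and SNAP-25. Active zone proteins hold vesicles and calcium channels at the release site, Munc13 proteins (Unc13 genes) prime the vesicles, and synaptotagmins and complexins tie fusion to calcium entry. NSF and its SNAP partners then take the SNARE complex apart. Neurons of different brain regions are known to use different paralogs of several of these proteins.

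Of the 41 genes, 10 were higher in KO and 3 lower (edgeR's quasi-likelihood test with n = 2 libraries per genotype, called at a Benjamini-Hochberg adjusted p below 0.05), and 28 did not pass. Over all genes tested 3.35% were called higher and 3.19% lower, 6.53% in all. The members are abundant transcripts, which pass the test more often. Among all genes with a mean of at least 100 CPM, a level chosen after seeing the data, 16.2% were called higher and 9.45% lower. Of the 29 members at that level, 8 were higher and 1 lower. The higher genes were Stx1a, Vamp2, Rims1, Syt1, Doc2a, Rph3a, Syp, Syn1, Syngr1 and Slc17a6, and the lower genes Nsf, Syt2 and Doc2b.

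The shifts were small. The median size of the 13 called changes was 0.090 on the log2 scale, against 0.15 over all called genes, and 9 of the 13 were below 1.1-fold. The median log2 fold change of the 41 members, KO over WT, was 0.042, beside -0.0004 over all genes tested. It was 0.044 for the 29 members of at least 100 CPM, beside 0.0090 for all genes at that level. The fold change was positive in 29 of the 41, where 49.9% of all genes tested were positive, and in 22 of the 29 members of at least 100 CPM, where 58.1% of all genes at that level were. The genotypes did not overlap in 35 of the 41, in 27 with KO above WT and in 8 with KO below. Of all genes tested 45.7% did not overlap, 22.8% with KO above WT and 22.9% with KO below. No such share was computed for genes of at least 100 CPM, so the abundance of the members is not matched here.

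**Figure D1:**
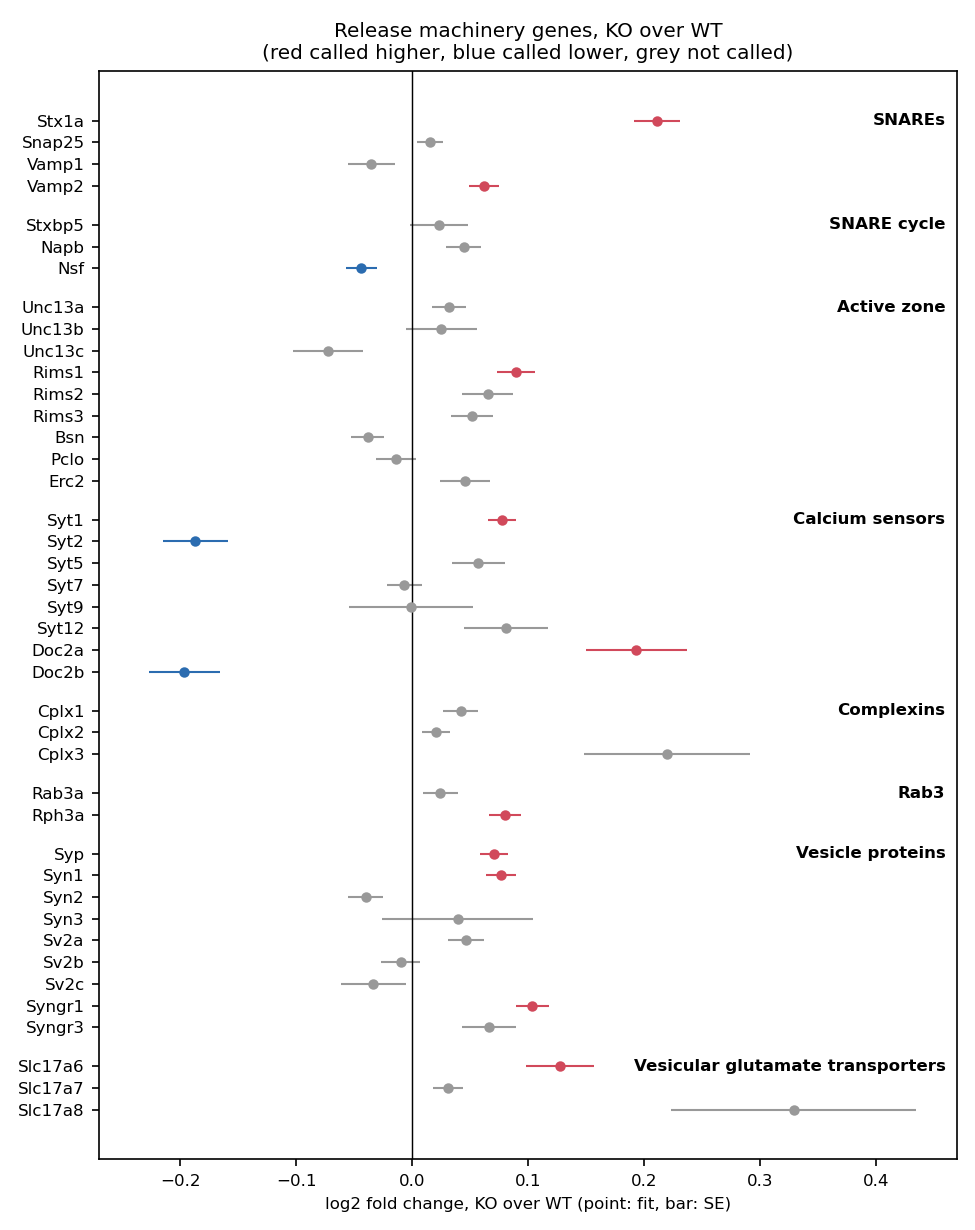
Log2 fold change of each of the 41 genes, KO over WT, grouped by role on the vertical axis, with the fitted value as a point and its standard error as a bar (2 libraries per genotype). Red points (10 genes) were called higher, blue points (3 genes) lower, and grey points (28 genes) were not called; most points lie within 0.1 of 0.

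Stx1a (ENSMUSG00000007207), the plasma membrane syntaxin of the SNARE complex, had 181 and 177 CPM in WT and 209 and 205 CPM in KO. Both KO libraries lay above both WT libraries. Its log2 fold change was 0.21 (adjusted p = 7.45e-08 by edgeR, SE 0.020), the smallest p of the 41. Vamp2 (ENSMUSG00000020894), the main synaptobrevin of forebrain synapses, had 1053 and 1066 CPM in WT and 1108 and 1103 CPM in KO. The groups did not overlap, and the rise was 0.062 on the log2 scale (adjusted p = 0.00236 by edgeR, SE 0.013). With counts halved, run because each pair seems to add 2 reads, the Vamp2 call was lost (edgeR adjusted p = 0.14). Vamp1, the synaptobrevin known from brainstem and spinal circuits, had 168 and 169 CPM in WT and 166 and 163 CPM in KO and did not pass. Snap25, the most abundant of the 41 genes in CPM, had 1953 and 1962 CPM in WT and 1979 and 1977 CPM in KO and did not pass either (log2 fold change 0.015, adjusted p = 0.562 by edgeR, SE 0.011). The members of the SNARE complex thus had unequal values, with Stx1a at 15.7% above WT and Snap25 at 1.0%.

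Of the 3 genes that act on SNAREs before or after fusion, 1 passed. Nsf (ENSMUSG00000034187), the ATPase that takes the complex apart, had 784 and 789 CPM in WT and 765 and 760 CPM in KO. It fell by 0.044 on the log2 scale (adjusted p = 0.047 by edgeR, SE 0.013). That call was lost when any 1 library was left out, with edgeR adjusted p from 0.0576 (without KO library 1) to 0.182 (without WT library 2), and when genes of X and Y were removed (0.0548). The Nsf call was kept with counts halved (edgeR adjusted p = 9.22e-07), by DESeq2 (adjusted p = 0.0248) and by limma-trend (adjusted p = 0.0225). Napb, the neuronal beta-SNAP that brings NSF to the complex, had 439 and 437 CPM in WT and 453 and 450 CPM in KO (edgeR adjusted p = 0.0835). Stxbp5 (tomosyn), which competes with synaptobrevin for syntaxin, ran from 118 to 124 CPM over the 4 libraries, and the genotypes overlapped.

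Among 9 active zone genes 1 was higher and 0 lower by edgeR, DESeq2 and limma-trend, with 5 higher and 2 lower by edgeR at an unadjusted p under 0.05. Rims1 (ENSMUSG00000041670), a scaffold that binds Rab3 and calcium channels, had 312 and 310 CPM in WT and 333 and 329 CPM in KO. Its log2 fold change was 0.090 (adjusted p = 6.93e-04 by edgeR, SE 0.016). The other RIM genes among the members, Rims2 and Rims3, also lay above WT in both KO libraries without passing. Rims4 is not a member and is given below with the wider presynaptic list. Rims2 had 134 CPM in each WT library and 140 CPM in each KO library, and Rims3 had 211 and 214 against 221 and 220 CPM (edgeR adjusted p = 0.0811 and 0.109). The 3 intervals of the differences among Rims1, Rims2 and Rims3 all held 0. Of the Munc13 genes, Unc13a had 533 CPM in each WT library and 542 and 548 CPM in KO. Unc13b ran from 64.4 to 66.9 CPM with overlap. Unc13c, known for its expression in cerebellar granule cells, had 86.7 and 81.9 CPM in WT and 81.3 and 78.9 CPM in KO (log2 fold change -0.073, adjusted p = 0.198 by edgeR, SE 0.030). Without WT library 2 Unc13c was called lower, with a log2 fold change of -0.113 (edgeR adjusted p = 0.0498), and without WT library 1 its log2 fold change was -0.030 (edgeR adjusted p = 0.827). The giant scaffolds Bsn (bassoon) and Pclo (piccolo) ranged from 729 to 762 CPM and from 362 to 375 CPM. The genotypes overlapped for Pclo and not for Bsn, which did not pass (edgeR adjusted p = 0.125). Bsn was called lower in the alternatives with library size alone, with counts halved and without WT library 2, where its edgeR adjusted p ranged from 5.21e-04 to 0.0397. Erc2, the ELKS relative CAST, ran from 146 to 153 CPM (edgeR adjusted p = 0.266).

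Of 8 synaptotagmin and Doc2 genes 2 rose and 2 fell. Syt1 (ENSMUSG00000035864), the fast sensor of most forebrain synapses, had 1248 and 1249 CPM in WT and 1323 and 1311 CPM in KO, a rise of 0.078 on the log2 scale (adjusted p = 1.08e-04 by edgeR, SE 0.012). The Syt1 call was lost with counts halved (edgeR adjusted p = 0.0571). Syt2 (ENSMUSG00000026452), the fast sensor known from hindbrain and cerebellar synapses, had 103 and 97.9 CPM in WT and 87.9 and 88.6 CPM in KO. It fell by 0.19 on the log2 scale (adjusted p = 6.44e-05 by edgeR, SE 0.028), and no KO library reached a WT library. The other 4 synaptotagmins did not pass. Syt7, a slow sensor with high calcium affinity, ran from 431 to 434 CPM. Syt5 had 129 and 131 CPM in WT and 134 and 137 CPM in KO, Syt12 had 44.5 and 44.2 against 47.2 and 46.6 CPM, and Syt9 ran from 21.5 to 22.7 CPM with overlap.

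The Doc2 genes encode soluble proteins with C2 domains linked to spontaneous and asynchronous release. Doc2a (ENSMUSG00000052301) had 29.5 and 29.97 CPM in WT and 33.8 and 34.2 CPM in KO. Doc2b (ENSMUSG00000020848) had 72.9 and 75.2 CPM in WT and 65.4 and 63.8 CPM in KO. The KO libraries thus lay above WT for Doc2a and below it for Doc2b. The log2 fold changes were 0.19 for Doc2a (adjusted p = 0.00556 by edgeR, SE 0.044) and -0.20 for Doc2b (adjusted p = 1.02e-04 by edgeR, SE 0.031). Exons of Doc2a share 39.4% of their length with exons of Ino80e on the opposite strand. No source states whether counting used strand, so reads of the shared stretch may be mixed between the 2 genes or lost. Ino80e averaged 37.3 CPM in WT and 37.1 CPM in KO.

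Complexins bind the assembled SNARE complex and restrain or promote fusion. By edgeR 0 of the 3 passed, with 2 higher at an unadjusted p under 0.05, and 0 passed by DESeq2 or limma-trend. Cplx1 had 600 and 617 CPM in WT and 623 and 629 CPM in KO, and Cplx2 had 1178 and 1176 against 1194 CPM in each KO library. Cplx3, best known from retinal ribbon synapses, was rare, with 12.8 and 12.5 CPM in WT and 15.6 and 13.7 CPM in KO (log2 fold change 0.22, adjusted p = 0.0709 by edgeR, SE 0.072). Cplx3 was called higher with the replicate block (edgeR adjusted p = 0.0487), with the dispersion set to 0 (0.0499) and without KO library 2 (0.00595), where its log2 fold change was 0.309. Without KO library 1 the log2 fold change of Cplx3 was 0.121.

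Rph3a (ENSMUSG00000029608), the Rab3 effector rabphilin, had 577 and 576 CPM in WT and 611 and 607 CPM in KO, a rise of 0.080 on the log2 scale (adjusted p = 4.23e-04 by edgeR, SE 0.014). Rab3a, the vesicle GTPase to which rabphilin binds, had 485 and 494 CPM in WT and 498 and 497 CPM in KO and did not pass (edgeR adjusted p = 0.455).

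Of 9 vesicle protein genes 3 were higher and 0 lower by edgeR, DESeq2 and limma-trend, with 5 higher and 1 lower by edgeR at an unadjusted p under 0.05. Syngr1 (ENSMUSG00000022415), a synaptogyrin of the vesicle membrane, had 522 CPM in each WT library and 561 CPM in each KO library, with a log2 fold change of 0.10 (adjusted p = 2.03e-05 by edgeR, SE 0.014). Syn1 (ENSMUSG00000037217), the synapsin that tethers vesicles in the reserve pool, had 843 and 848 CPM in WT and 893 and 890 CPM in KO (log2 fold change 0.077, adjusted p = 2.90e-04 by edgeR, SE 0.013). Syp (ENSMUSG00000031144), the vesicle protein synaptophysin, had 1262 and 1260 CPM in WT and 1320 and 1329 CPM in KO (log2 fold change 0.071, adjusted p = 3.30e-04 by edgeR, SE 0.012). In all 3 the KO libraries lay above WT. The Syp call was lost with counts halved (edgeR adjusted p = 0.0903). Syp and Syn1 are X-linked, and the libraries differed in sex-linked transcripts, with Xist at 297 and 287 CPM in WT and 441 and 420 CPM in KO and the Y-linked Ddx3y at 27.9 and 28.1 against 11.9 and 11.6 CPM. Both transcripts were read in all 4 libraries. Their levels differed with genotype, so sex and genotype cannot be told apart for any of the 41 genes. The part of sex in the result was not tested. Of 69 X-linked genes of at least 100 CPM, 11.6% were called higher and 5.8% lower.

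The other vesicle protein genes did not pass. Syngr3 had 120 and 117 CPM in WT and 125 and 123 CPM in KO (edgeR adjusted p = 0.105). Syn2 went the other way from Syn1, with 467 and 462 CPM in WT and 453 and 451 CPM in KO (edgeR adjusted p = 0.126), and was called lower with library size alone (0.0432) and with counts halved (0.00634). Syn3 ran from 13.7 to 14.4 CPM, and 14.1% of its exon length overlaps Timp3 on the opposite strand. Sv2a, the SV2 protein present on most vesicles, had 495 and 492 CPM in WT and 516 and 503 CPM in KO (edgeR adjusted p = 0.0818), and was called higher with the replicate block (0.0485). Without KO library 2 the edgeR adjusted p of Sv2a was 0.00706 and its log2 fold change 0.066, and without KO library 1 the log2 fold change was 0.027. Sv2b and Sv2c ran from 319 to 327 CPM and from 83.0 to 87.2 CPM, both with overlap.

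The 3 vesicular glutamate transporters fill vesicles with glutamate and mark different excitatory neurons. Slc17a6 (VGLUT2; ENSMUSG00000030500), known from thalamus and brainstem, had 73.8 and 72.6 CPM in WT and 78.6 and 81.5 CPM in KO. It rose by 0.13 on the log2 scale (adjusted p = 0.00634 by edgeR, SE 0.029). That call was lost without WT library 2 (edgeR adjusted p = 0.053) and without KO library 2 (0.0651). Slc17a7 (VGLUT1), the transporter of cortical, hippocampal and cerebellar granule neurons, had 1146 and 1168 CPM in WT and 1179 and 1184 CPM in KO and did not pass (edgeR adjusted p = 0.199). Slc17a8 (VGLUT3), found in scattered serotonergic, cholinergic and GABAergic neurons, had 4.64 and 4.39 CPM in WT and 5.42 and 5.93 CPM in KO. Its log2 fold change of 0.33 (SE 0.106) was the largest of the 41 and did not pass (edgeR adjusted p = 0.0654).

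**Figure D2:**
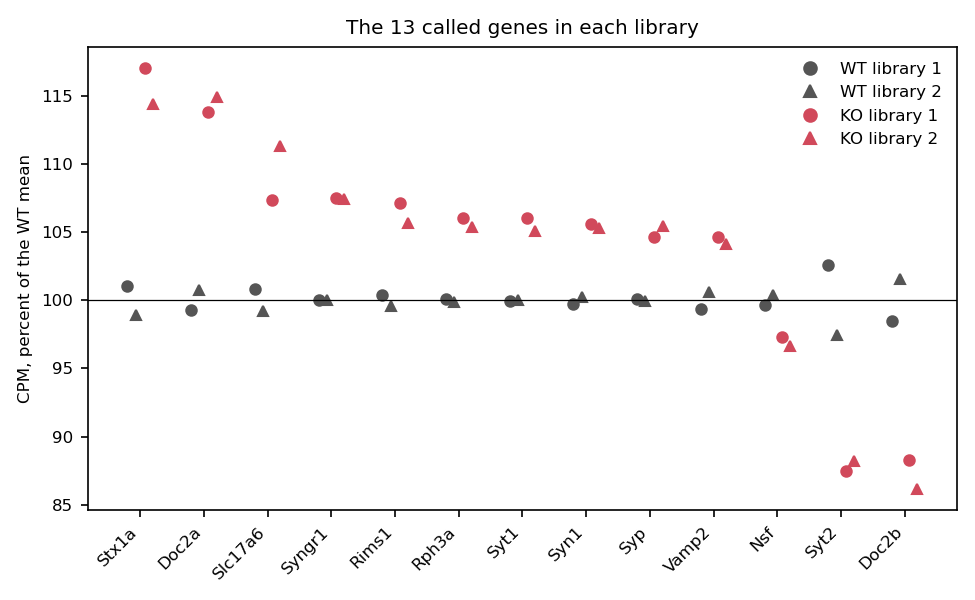
CPM of the 13 called genes in each of the 4 libraries, as percent of the mean of the WT libraries (circles library 1, triangles library 2, grey WT, red KO). For each gene the red symbols lie on 1 side of the grey ones; Stx1a and Doc2a are farthest above 100 and Syt2 and Doc2b farthest below.

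The sequence upstream of the start is shown for Stx1a, the rise with the smallest p, for Syn1 and for Syt2, a synaptotagmin that fell. They were taken from the RefSeq promoter table of build GRCm38.p6, which is not the build of the counts (GRCm39), and end 1 base before the start. The table held 42 windows for 31 of the 41 members. Each is 250 bases, written 5′ to 3′ on the strand of the gene. Capitals mark matches on either strand to the cAMP response element TGACGTCA, to TTCAGCACC (the left part of the site of the repressor REST), or to the GC box GGGCGG; GCGTGGGCG, the EGR motif, was also searched. The Stx1a window is chr5:135023232-135023481 on the plus strand, the Syn1 window chrX:20920919-20921168 on the minus strand, and the Syt2 windows, at 2 starts, chr1:134646362-134646611 and chr1:134709050-134709299 on the plus strand.
Stx1a: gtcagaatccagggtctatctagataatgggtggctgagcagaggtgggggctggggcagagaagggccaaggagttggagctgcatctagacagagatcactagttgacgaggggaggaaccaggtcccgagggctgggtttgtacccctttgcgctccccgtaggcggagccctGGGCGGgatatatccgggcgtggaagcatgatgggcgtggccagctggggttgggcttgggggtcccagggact
Syn1: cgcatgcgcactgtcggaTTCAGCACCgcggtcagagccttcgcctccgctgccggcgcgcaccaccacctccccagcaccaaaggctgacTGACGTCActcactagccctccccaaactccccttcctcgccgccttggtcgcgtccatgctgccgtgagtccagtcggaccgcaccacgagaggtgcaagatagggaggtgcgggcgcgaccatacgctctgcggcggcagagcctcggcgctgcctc
Syt2 start 1: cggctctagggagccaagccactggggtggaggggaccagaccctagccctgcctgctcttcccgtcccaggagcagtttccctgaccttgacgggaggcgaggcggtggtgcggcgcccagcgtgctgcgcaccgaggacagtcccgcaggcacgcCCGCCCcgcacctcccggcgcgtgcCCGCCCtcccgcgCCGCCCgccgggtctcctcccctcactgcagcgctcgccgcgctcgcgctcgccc
Syt2 start 2: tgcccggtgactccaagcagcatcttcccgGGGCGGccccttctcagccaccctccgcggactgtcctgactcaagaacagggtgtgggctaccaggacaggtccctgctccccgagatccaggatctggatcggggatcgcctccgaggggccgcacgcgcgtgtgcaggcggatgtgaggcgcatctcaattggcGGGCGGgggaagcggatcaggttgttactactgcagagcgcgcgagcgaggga

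The Syn1 window held 1 cAMP response element and 1 match to the left part of the REST site, the only matches to either among the 42 member windows. Of all 32851 windows, 1.55% held the first and 0.301% the second. GC boxes were found in 23 of the 42 member windows (54.8%) and in 32.7% of all windows. They occurred upstream of genes that rose (1 in the Stx1a window) and of Syt2, which fell (3 and 2 in its windows). The EGR motif matched 1 member window, that of Unc13a, and 0.536% of all windows. The median GC content was 61.0% in the member windows and 52.4% in all windows.

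Within most families the paralogs sat at different levels. Compared per length, as CPM per kilobase of merged exons, WT means were 278 for Vamp2 and 16.6 for Vamp1, and 42.2 for Unc13a, 9.58 for Unc13c and 2.85 for Unc13b. Syt1 had 150 CPM per kilobase in WT, Syt7 58.0, Syt5 54.7 and Syt2 13.2, with Syt12 at 8.01 and Syt9 at 5.55. Cplx1 and Cplx2 were close on this scale, at 278 and 239, and Cplx3 was at 4.28. Syn1 had 256, Syn2 66.1 and Syn3 1.13 CPM per kilobase. Slc17a7 made up 93.1% to 93.8% of the summed level per kilobase of the glutamate transporters in the 4 libraries, Slc17a6 5.83% to 6.40% and Slc17a8 0.40% to 0.53%. Merged exon lengths count every annotated exon, such as the 22746 bases of Unc13b, and so understate genes with rarely used exons.

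**Figure D3:**
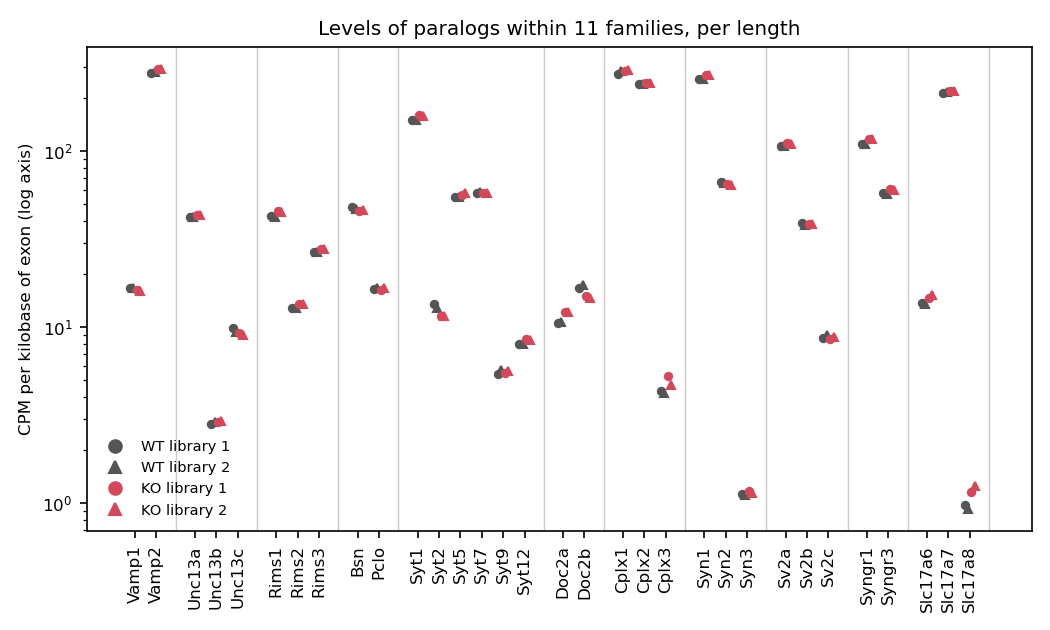
Level of each paralog in 11 families as CPM per kilobase of merged exon, on a log axis, in the 4 libraries (circles library 1, triangles library 2, grey WT, red KO). The order of paralogs within a family is the same in all 4 libraries; Syt5 and Syt7 lie close together, as do Cplx1 and Cplx2.

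The difference between the log2 fold changes of 2 paralogs asks whether their balance changed between genotypes. It was computed for the 37 pairs within 11 families, with the standard errors of both genes and 95% intervals that are not adjusted for the number of pairs. An exact permutation of 2 against 2 libraries cannot go below 0.33 and was not used. No share over other pairs of genes was computed, and pairs that share a gene are not independent. The interval left out 0 for 19 pairs in 8 families, among them every pair with Syt2. For 8 of the 19 it did so in the 9 alternative fits too: Vamp1 with Vamp2, Syt1 with Syt2, Syt1 with Syt7, Syt2 with Syt5, Syt7 and Syt12, Doc2a with Doc2b, and Syn1 with Syn2.

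The largest shift was between the Doc2 genes. The ratio of Doc2a to Doc2b counts was 0.405 and 0.398 in the WT libraries and 0.518 and 0.536 in the KO libraries. The difference of the log2 fold changes was 0.39 (95% interval 0.28 to 0.50), with the overlap of Doc2a and Ino80e exons as a limit. Syt1 had 12.1 and 12.8 times the counts of Syt2 in WT and 15.1 and 14.8 times in KO, a difference of 0.27 (0.20 to 0.33). Against Syt5, Syt7 and Syt12 the Syt2 change was lower by 0.24 (interval -0.32 to -0.17), 0.18 (-0.25 to -0.12) and 0.27 (-0.36 to -0.17), and against Syt9 by 0.19 (-0.31 to -0.061), where the interval held 0 without WT library 1 (-0.264 to 0.048). Syt1 differed from Syt7 by 0.085 (0.045 to 0.124). For Syt1 with Syt12 the difference was -0.003 (-0.082 to 0.076).

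Vamp1 shifted against Vamp2 by -0.097 (95% interval -0.147 to -0.048), and the ratio of their counts went from 0.160 and 0.159 in WT to 0.149 and 0.148 in KO. Syn1 shifted against Syn2 by 0.117 (0.076 to 0.158), with a ratio of 1.81 and 1.83 in WT and 1.97 and 1.98 in KO. Slc17a6 rose relative to Slc17a7 by 0.097 (0.031 to 0.163), and its interval held 0 without WT library 2 (-0.009 to 0.153) and without KO library 2 (-0.002 to 0.151). Unc13a differed from Unc13c by 0.104 (0.035 to 0.174), with an interval of -0.019 to 0.145 without WT library 1. No shift was detectable between Unc13a and Unc13b (0.007, -0.064 to 0.077), Bsn and Pclo (-0.025, -0.071 to 0.021), Cplx1 and Cplx2 (0.021, -0.019 to 0.062) or Syngr1 and Syngr3 (0.037, -0.019 to 0.094).

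**Figure D4:**
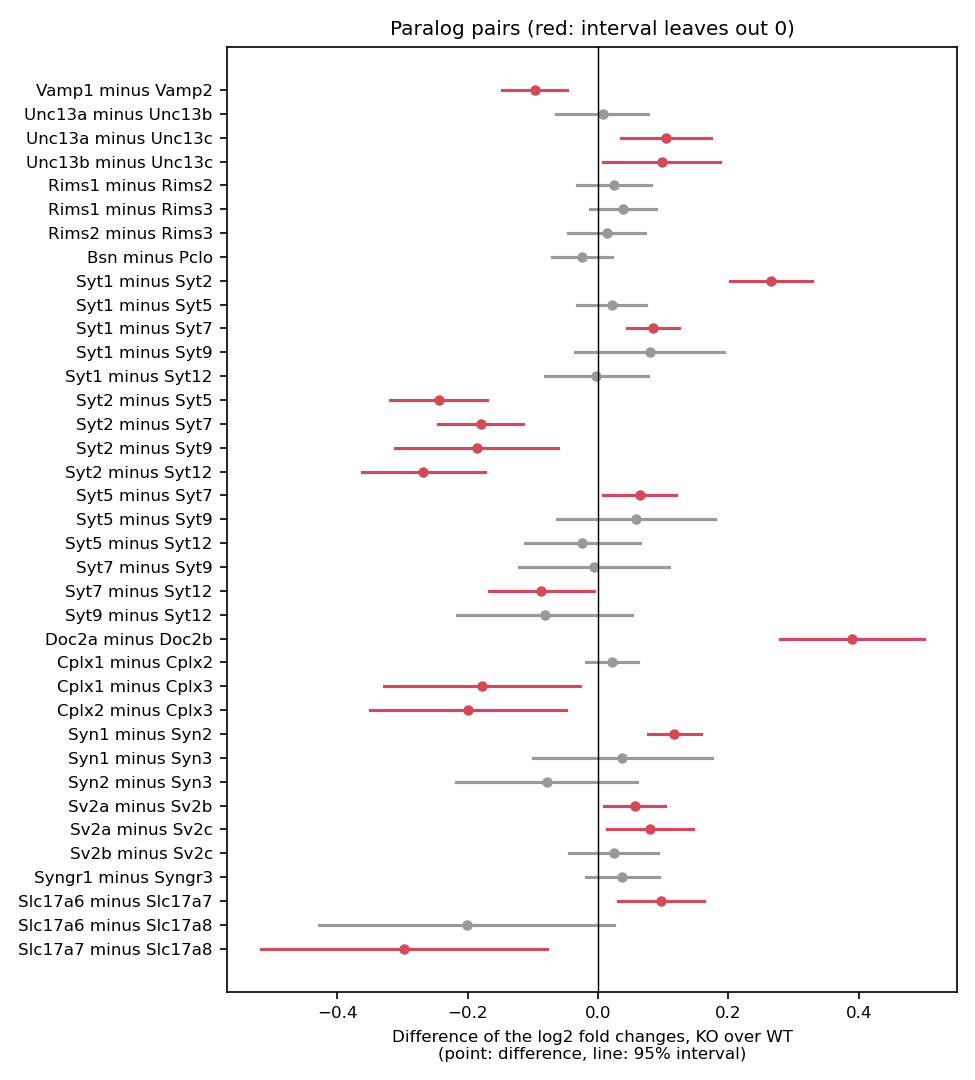
Difference of the log2 fold changes (KO over WT) of the first and second gene of each of the 37 paralog pairs, with the difference as a point and its 95% interval as a line. Red marks the 19 pairs whose interval leaves out 0; Doc2a against Doc2b is the largest at 0.39, and the pairs with Syt2 first lie on the negative side.

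Other genes of the presynapse came from a list of 79 symbols, of which 78 matched and 77 were tested. They were called higher in 9 cases (11.7%) and lower in 4 (5.2%), with a median log2 fold change of 0.004. Over all genes tested 3.35% were called higher and 3.19% lower. Among all genes of at least 100 CPM the shares were 16.2% and 9.45%, above those of the list. The list holds genes on both sides of that level. The RIM relative Rims4 rose from a mean of 139 to 156 CPM (0.17 on the log2 scale, adjusted p = 7.81e-06 by edgeR, SE 0.022), and Syt6 from 37.8 to 45.7 CPM. Slc6a17, a vesicular transporter of neutral amino acids, rose from 580 to 617 CPM. The liprin genes Ppfia4 and Ppfia2 fell from 128 to 116 CPM and from 121 to 112 CPM. The phosphatase Synj1, which uncoats endocytosed vesicles, fell from 388 to 372 CPM and the dense-core vesicle priming factor Cadps2 from 90.1 to 84.6 CPM.

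Markers of brain regions also differed between the same libraries. In bulk samples fewer cells of a type and less RNA per cell cannot be told apart. All 7 cerebellar granule cell markers and all 5 Purkinje cell markers were lower in KO. The Purkinje sum ranged from 832 to 837 CPM in WT and from 701 to 707 CPM in KO. Itpr1, with a log2 fold change of -0.179, made up most of that sum, and Calb1 had -0.171. The log2 fold changes of Pcp2, Car8 and Ppp1r17 were -1.36, -0.878 and -0.865. Slc6a5, the glycine transporter of hindbrain neurons, fell from 11.5 to 5.37 CPM, 1 of 5 markers of that list to pass, and their sum ran from 18.2 to 19.7 CPM in WT and from 11 to 11.7 CPM in KO. On the other side, all 8 striatal markers, 4 of 7 neocortical markers and 3 of 6 thalamic markers were higher, and no gene of these lists was called lower. The neocortical sum ran from 589 to 591 CPM in WT and was 627 CPM in each KO library, and the thalamic sum from 262 to 266 CPM in WT and from 283 to 290 CPM in KO. Of 9 markers shared by neurons, 3 were higher and 0 lower, with a sum of 4445 to 4454 CPM in WT and 4548 to 4583 CPM in KO. Of 6 dentate granule cell markers 4 were lower, with a sum of 124 to 126 CPM in WT and 93.0 to 96.2 CPM in KO. The part of these markers in the values of the release genes was not tested. The summed level of the 41 release genes ran from 17614 to 17646 CPM in WT and from 18050 to 18065 CPM in KO.

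**Figure D5:**
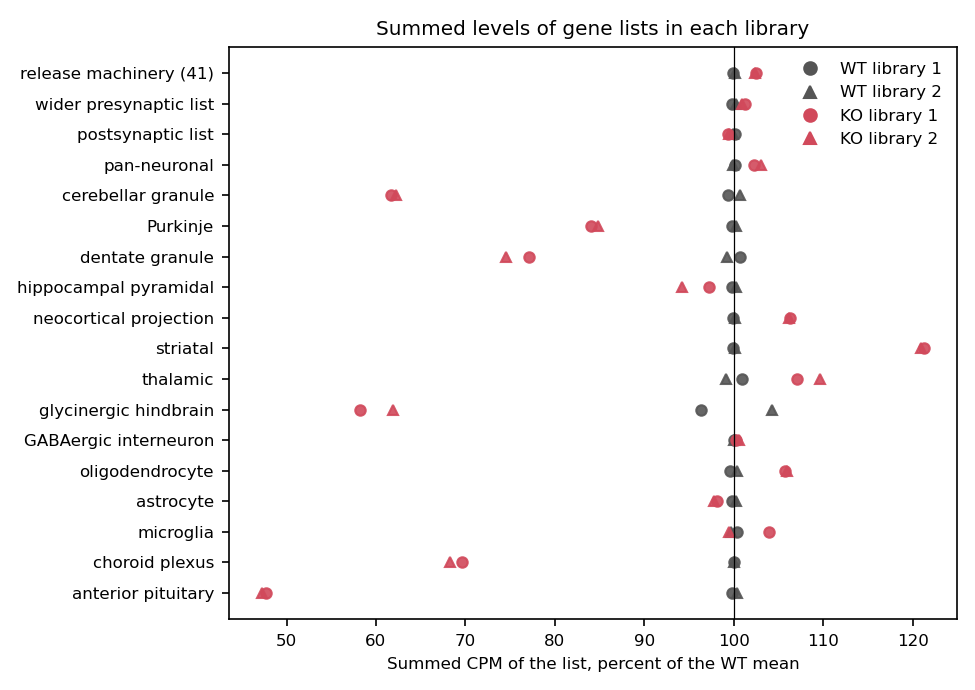
Summed CPM of the 41 release genes, of 2 other synaptic lists and of 15 cell marker lists in each library, as percent of the WT mean of that list (circles library 1, triangles library 2, grey WT, red KO). The release genes lie just above 100 in KO, while cerebellar granule, choroid plexus and pituitary lists lie far below and the striatal list above.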

How the data were processed

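The authors deposited raw counts per gene, keyed by Ensembl mouse identifiers. GRCm39, STAR 2.6.1c, featureCounts, FastQC and DESeq2 are named, without roles, per the submitters' processing notes. The annotation release, the strand setting and how multi-mapping reads were treated are not stated. Of counts between 1 and 20, 72.8% to 74.3% per library were even, so each pair seems to add 2 reads, and counting errors are larger than read numbers give. Columns were matched to samples by name. Symbols came from a GENCODE M21 table (52081 of 55414 identifiers matched), as did merged exon lengths.

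The fit used edgeR 4.0.16 in R 4.3.3: filterByExpr by genotype at a minimum count of 10, TMM scaling, glmQLFit and glmQLFTest over 21592 genes, with Benjamini-Hochberg adjustment over all of them. Fold changes are KO over WT, CPM uses the TMM-scaled library size, and a standard error is the log2 fold change over the square root of F. The interval of a paralog difference uses 23.3 degrees of freedom. Every member is accounted for. Members called get the value in each library, and for the wider presynaptic and postsynaptic lists up to 4 genes per direction with the smallest p are named, except where a result is not reported here. The members, families and lists were chosen with earlier results of these data known. Alternatives included DESeq2 1.42.0, limma-trend (limma 3.58.1), other scalings and filters, a replicate block and each library left out. The procedure was tested on simulated data with set changes of at least 1.1-fold, so smaller changes, such as those of most called members, were not covered.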

Additional observations from a re-analysis of the deposited data

How the results depend on the processing

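With X and Y genes left out, which removes the X-linked Syp and Syn1 from the fit, 8 members were higher. In the other alternatives the count of higher members (10) ranged from 10 to 15, at an adjusted p under 0.1, and was 12 with the replicate block. The count of lower members (3) was 5 with library size alone and 5 with counts halved. With 1 library left out, where the lone library is assumed to vary like the other genotype, 10 to 11 members were higher and 2 to 4 lower. The members' median log2 fold change of 0.042 was 0.0323 with library size alone, which moves the median of all genes to -0.0099, and 0.0394 to 0.0446 with 1 library left out. With library size alone 601 genes were called higher and 828 lower over all genes, against 723 and 688 with TMM. Lower genes of the wider presynaptic list (4) numbered 7 with library size alone, 8 at an adjusted p under 0.1 and 2 to 5 with 1 library left out, and 2 without WT library 2 or without KO library 2. Higher genes of the postsynaptic list (8) numbered 5 with library size alone and 4 to 7 with 1 library left out, and 4 without WT library 2 or without KO library 1. Of the 13 called members, 8 were called in each of the alternatives that gave them a value, and Vamp2, Nsf, Syt1, Syp and Slc17a6 were not. No called member changed direction in the alternatives run. Of the 28 members not called, 11 were called in at least 1 alternative: Napb, Unc13a, Unc13c, Rims2, Bsn, Cplx1, Cplx3, Syn2, Sv2a, Slc17a7 and Slc17a8. With counts halved these were Napb, Unc13a, Bsn, Cplx1, Syn2 and Sv2a (edgeR adjusted p from 5.21e-04 to 0.0107). Rims2 and Slc17a8 were called only with the main fit read at an adjusted p under 0.1 (edgeR adjusted p = 0.0811 and 0.0654). The replicate numbers are not stated to pair the libraries, and deviations of same-numbered libraries from their genotype means correlated at r = 0.0503 over 15156 genes of at least 1 CPM. With the replicate block 818 genes were higher and 772 lower. Of the paralog pairs, 19 had an interval without 0 with the replicate block, 14 by DESeq2 and 13 to 14 with 1 library left out. The 2 libraries per genotype limit the precision of every value.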

Other observations

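On the other side of the synapse, 8 genes of the postsynaptic list of 33 were called higher (24.2%) and 7 lower (21.2%) by edgeR. The median log2 fold change of the list was 0.038. Beside these shares, 3.35% of all genes tested were higher and 3.19% lower. Of all genes of at least 100 CPM, 16.2% were higher and 9.45% lower. Homer1, a scaffold whose short form neurons induce on activity, rose from a mean of 218 to 262 CPM (0.26 on the log2 scale, adjusted p = 2.09e-10 by edgeR, SE 0.018). Cacng3, an AMPA receptor auxiliary subunit, rose from 102 to 122 CPM, Dlgap3 from 521 to 558 CPM and Dlg1 from 173 to 182 CPM. Homer3, known from Purkinje cells, fell from 36.5 to 24.2 CPM (-0.59 on the log2 scale, adjusted p = 5.39e-09 by edgeR, SE 0.048). Gria1, an AMPA receptor subunit, fell from 615 to 542 CPM, Camk2a, the kinase of excitatory postsynapses, from 3216 to 3077 CPM, and Cacng8 from 79.95 to 71.5 CPM. The summed level of the list ran from 14597 to 14620 CPM in WT and from 14511 to 14525 CPM in KO, below WT. Camk2a, its most abundant gene, alone fell by more than the mean sum, which went from 14608.5 to 14518.0 CPM. The median log2 fold change of the list was near the 0.042 of the release genes.

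Among glial and other markers in the same libraries, all 6 oligodendrocyte markers were higher in KO (sum 9773 to 9850 CPM in WT, 10369 to 10390 CPM in KO), and 3 of 5 astrocyte markers were lower (sum 5211 to 5230 CPM in WT, 5105 to 5123 CPM in KO). Of 5 choroid plexus markers 4 were lower (sum 620 to 621 CPM in WT, 424 to 432 CPM in KO), as were 3 of the 4 anterior pituitary markers tested (sum 61.5 to 61.8 CPM in WT, 29.1 to 29.4 CPM in KO). Of 4 microglial markers 0 passed by edgeR, DESeq2 or limma-trend, with 1 at an unadjusted p under 0.05 by edgeR and sums of 151.9 to 153 CPM in WT and 151.5 to 158 CPM in KO. Of 6 hippocampal pyramidal markers 4 were lower, and of 6 GABAergic interneuron markers Vip was higher and Pvalb lower.

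Besides Doc2a, exons of 13 members overlapped exons of another annotated gene, each over less than 20% of their length. The largest shares were 17.2% for Syt12, 16.8% for Syp and 14.1% for Syn3, whose partner Timp3 averaged 134 CPM against under 15 CPM for Syn3. If strand was not used, the Syn3 count may have gained or lost reads of the shared stretch.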
